A study of Arabidopsis thaliana with 12 samples.

Results

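The 48 genes described here are nuclear genes of Arabidopsis thaliana whose transcripts stood at least 3 higher on the log2 scale, which is 8-fold, in heated than in untreated shoots, both in an msh1 recA3 double mutant and in the wild type. The genes were chosen by these heat differences, which are therefore given as a description and without a test. Of 22746 probe sets on the array, 137 passed the limit in both genotypes. Among them 56 were assigned to no gene, 8 to several genes, 10 to genes that the annotation did not place in the nucleus, 4 to the copy of mitochondrial DNA on chromosome 2, and 11 to small heat shock proteins and co-chaperones that were left out. UGT and CYP genes were to be left out too, and 0 passed. Each of the 48 genes that remained passed with 1 probe set. They stand among 13286 genes read by a single-gene probe set, and among 13250 nuclear probe sets of single genes that could have been chosen. Of those, 53 reached the limit in the double mutant and 64 in the wild type.

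RNA came from the above-ground parts of plants aged 8 weeks and was hybridised to Affymetrix arrays, 12 in all. Heated double mutants (n = 3) and untreated double mutants (n = 4) carried msh1 and recA3 mutations, both homozygous, in the Col-0 background. Heated wild type (n = 3) and untreated wild type (n = 2) were Col-0. All plants were grown at 24 °C, and heated plants were held at 37 °C, for 2 h by the design text and for about 24 h by the treatment protocol. The alleles are not named in the sources used here, and MSH1 and RECA3, whose products guard organelle DNA, were not analysed here. Arrays of a group are labelled as biological replicates, without saying which plants or how many each array holds. In whole shoots, fewer cells of a type and less RNA per cell cannot be told apart.

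Heat unfolds proteins, and plant cells answer it with a fast rise of transcripts for chaperones, driven by heat shock factors. HSP70 chaperones bind exposed stretches of unfolded proteins and work with J-domain proteins, which hand them clients, with exchange factors, which reset them, and with HSP90, to which adaptor proteins pass some clients. Proteins that cannot be refolded are marked with ubiquitin for breakdown by the proteasome. In leaves the chloroplast and mitochondria have folding systems of their own.

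The leaf markers RCA, which activates Rubisco, and LHCB4.1, an antenna protein, read between 13.02 and 13.85 on every array, and the root hair expansin EXPA7 stood close to each array's lower quartile, at 3.61 to 4.13. RCA read 13.73, 13.75, 13.83 and 13.85 in untreated double mutants, against 13.20 and 13.46 in untreated wild type, and was called higher in the double mutants by 0.46 ± 0.09 (SE) (limma adjusted p = 0.0291), and LHCB4.1 differed the same way by 0.31 ± 0.08 (SE) (adjusted p = 0.0575). EXPA7 differed the other way without heat, by -0.38 ± 0.10 (SE), and was not called (limma adjusted p = 0.0694). The root-associated glucosidase PYK10 read 7.47 to 8.88 in untreated double mutants and 6.38 to 6.82 in untreated wild type, a called difference of 1.72 ± 0.33 (SE) (adjusted p = 0.0234), and 6.38 to 6.71 in heated double mutants and 5.94 to 6.51 in heated wild type, and the part of these markers in the genotype differences below was not tested. In all, 2 of 7 leaf markers, 2 of 4 root markers and 0 of 5 flower markers on the lists could be read. Over all probe sets the second principal component, with 10.2% of the variance, set the genotypes apart, but heated double mutant replicate 3 scored 8.73, against -22.5 and -26.8 in the other heated double mutants and 13.5 to 16.3 in the heated wild type. Untreated double mutant replicates 1 and 2 scored -2.95 and -0.964, against -22.9 and -30.9 in replicates 3 and 4. The part of these differences between arrays in the results below was not tested beyond leaving out arrays in turn.

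**Figure D1:**
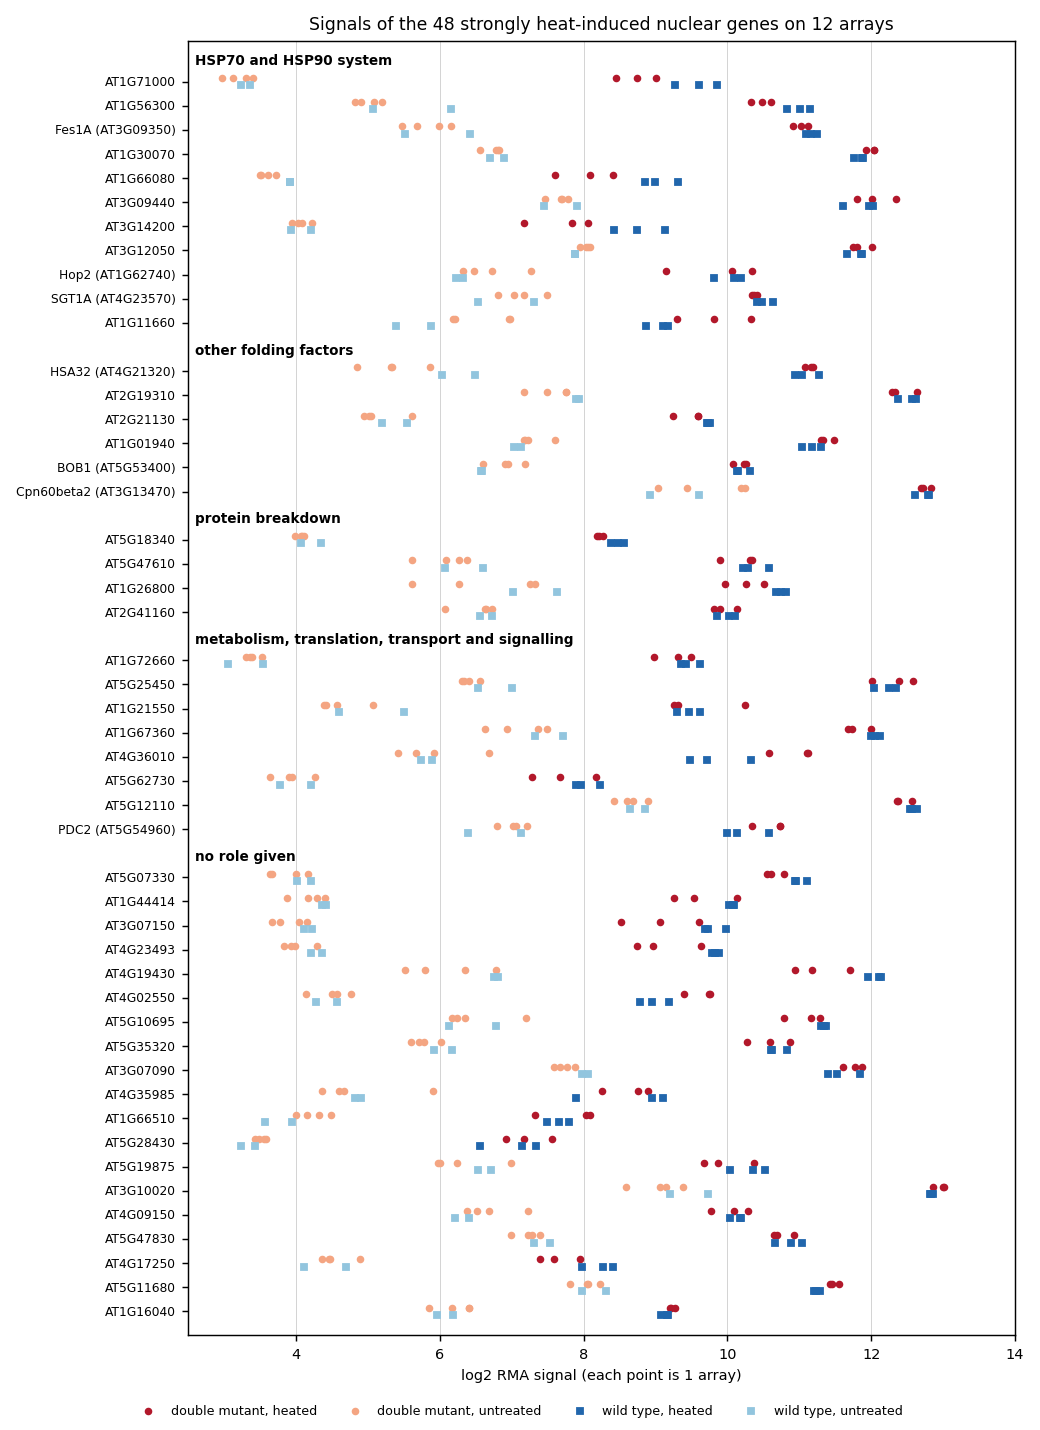
Log2 RMA signal (horizontal axis) of each of the 48 genes (rows, by role) on the 12 arrays, with circles for the double mutant above squares for the wild type, dark for heated and pale for untreated arrays. Dark and pale points are separate in every row, which the choice of genes largely fixes, with a smallest gap of 1.88 for Hop2. Positions of different rows cannot be compared since each probe set binds differently.

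The 48 genes had heat differences of 3.02 to 6.78 in the double mutant, with a median of 4.09, and of 3.07 to 6.88 in the wild type, with a median of 4.07. As fold changes these were 8.11 to 109.6 with a median of 17.0 in the double mutant, and 8.37 to 117.9 with a median of 16.7 in the wild type. In the double mutant 22 genes lay below 4, 12 between 4 and 5, 13 between 5 and 6, and 1 above 6. In the wild type the counts were 21, 15, 9 and 3. All 48 were called higher by limma in both genotypes, which the choice of genes fixes, where 13.8% of all probe sets were called higher in the double mutant and 13.7% in the wild type. With arrays centred on reference genes the share of all probe sets called higher in the double mutant was 46%, and 11.7% were called lower, against 20.2% lower as deposited.

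Signals without heat were low for some of these genes. In 34 genes no untreated array lay within 0.5 of the lower quartile of its own array, a level of 3.67 to 3.76 on the untreated arrays. In 6 genes all untreated arrays lay below that quartile or within 0.5 above it, namely AT5G07330, AT1G72660, AT1G71000, AT3G07150, AT1G66080 and AT5G28430. For these 6 the untreated signal could not be told apart from background, and the size of the heat difference rests on it. In AT3G14200, AT5G18340 and AT5G62730, 5 of 6 untreated arrays lay below the quartile or within 0.5 above it. In AT4G23493 and AT1G66510 it was 4 of 6. After heat, 36 of the 48 genes were above the 90th percentile of every heated array.

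By role, 11 genes belong to the system of HSP70 and HSP90 and 6 to other folding factors, where HSA32 was counted for its role in thermotolerance. Another 4 serve protein breakdown, 8 serve metabolism, translation, transport or signalling, and 19 are given no role here. Of the 48, 7 have a symbol in the annotation, and roles of the others come from general knowledge of the locus. Along the chromosomes 4 pairs of the 48 lie within 10 places of each other in RefSeq's order of protein-coding genes: AT4G35985 and AT4G36010, 3 places apart, AT3G07090 and AT3G07150, 6 apart, Fes1A and the HSP70 gene AT3G09440, 9 apart, and AT4G23493 and SGT1A, 10 apart.

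HSP70 itself was represented by AT3G09440, a cytosolic HSP70. It read 12.01, 12.35 and 11.79 in heated double mutants, against 7.69, 7.46, 7.70 and 7.78 in untreated ones, and 11.97, 12.03 and 11.60 in heated wild type, against 7.91 and 7.45 in untreated wild type. The heat differences were 4.39 ± 0.16 (SE) in the double mutant and 4.18 ± 0.19 (SE) in the wild type, and their difference was 0.21 ± 0.25 (SE), with a 95% interval of -0.34 to 0.76. AT1G11660, an HSP70 relative of the HSP110 type, which exchanges nucleotides on HSP70, read 9.81, 10.32 and 9.30 in heated double mutants, against 6.21, 6.19, 6.96 and 6.98 in untreated ones. In heated wild type it read 8.86, 9.10 and 9.17, against 5.87 and 5.39 in untreated wild type. Every double mutant array was above every wild-type array at the same temperature, by a mean of 0.76 ± 0.28 (SE) after heat and 0.95 ± 0.30 (SE) without it, but neither passed the adjusted test (adjusted p = 0.284 and 0.123, limma).

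Among the genes were 3 J-domain proteins, the partners that deliver clients to HSP70. AT1G71000 read 8.45, 9.002 and 8.74 in heated double mutants, against 3.13, 3.31, 2.97 and 3.41 in untreated ones, and 9.85, 9.60 and 9.27 in heated wild type, against 3.36 and 3.23 in untreated wild type. Its heat difference was 5.53 ± 0.16 (SE) in the double mutant and 6.28 ± 0.19 (SE) in the wild type. AT1G56300 read 10.48, 10.33 and 10.61 in heated double mutants, against 5.19, 5.08, 4.82 and 4.90 in untreated ones, and 11.15, 11.01 and 10.83 in heated wild type, against 6.15 and 5.08 in untreated wild type. Its heat difference was 5.48 ± 0.21 (SE) in the double mutant and 5.38 ± 0.25 (SE) in the wild type, where the pair of untreated arrays lay more than 1 apart. AT3G14200 read 7.16, 7.84 and 8.06 in heated double mutants, against 4.09, 4.03, 4.22 and 3.94 in untreated ones, and 9.13, 8.75 and 8.43 in heated wild type, against 4.21 and 3.93 in untreated wild type. In all 3 genes the heated double mutants lay below the heated wild type without overlap, as they did in 8.08% of all probe sets.

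Factors that reset, carry or bridge HSP70 showed heat differences over a wide range. Fes1A, which protects HSP70 and exchanges its nucleotide, read 10.91, 11.13 and 11.02 in heated double mutants, against 5.69, 6.15, 5.48 and 5.99 in untreated ones, and 11.24, 11.09 and 11.16 in heated wild type, against 6.41 and 5.52 in untreated wild type. Its heat differences of 5.19 ± 0.20 (SE) and 5.19 ± 0.24 (SE), double mutant and wild type, were nearly equal. AT1G66080, a Hikeshi-like protein of the family that carries HSP70 into the nucleus, read 7.601, 8.08 and 8.41 in heated double mutants, against 3.61, 3.71, 3.52 and 3.5002 in untreated ones. In heated wild type it read 9.31, 8.86 and 8.997, against 3.91 and 3.91 in untreated wild type, so the heated genotypes did not overlap. Hop2, the adaptor that links HSP70 with HSP90, read 10.35, 10.07 and 9.15 in heated double mutants, against 6.32, 6.47, 6.73 and 7.27 in untreated ones, and 10.09, 9.82 and 10.18 in heated wild type, against 6.22 and 6.32 in untreated wild type. Heated double mutant replicate 3 was the lowest heated array of Hop2 and untreated double mutant replicate 4 the highest untreated one. Its heat difference was 3.16 ± 0.27 (SE), against 3.76 ± 0.33 (SE) in the wild type.

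On the HSP90 side, AT3G12050 encodes an Aha1-type protein; in yeast Aha1 activates the ATPase of HSP90. It read 11.74, 12.003 and 11.80 in heated double mutants, against 8.06, 7.95, 8.03 and 8.09 in untreated ones, and 11.87, 11.67 and 11.86 in heated wild type, against 7.87 and 7.88 in untreated wild type. Replicates lay close together, with a residual SD of 0.0971. SGT1A, an HSP90 co-chaperone also known from plant immunity, had heat differences of 3.25 ± 0.18 (SE) in the double mutant and 3.58 ± 0.22 (SE) in the wild type. AT1G30070, which carries the SGS domain known from SGT1, had 5.26 ± 0.09 (SE) and 5.04 ± 0.11 (SE) in the same order. No gene of HSP90 itself could be read under a single-gene probe set.

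HSA32 prolongs acquired thermotolerance in Arabidopsis and was grouped with the other folding factors on that ground. It reached 11.08, 11.16 and 11.18 in heated double mutants, against 5.34, 4.84, 5.86 and 5.32 in untreated ones. In heated wild type it reached 11.03, 10.94 and 11.27, against 6.03 and 6.49 in untreated wild type. The heated values of the genotypes overlapped and the untreated ones did not. The heat difference was 5.80 ± 0.20 (SE) in the double mutant and 4.82 ± 0.24 (SE) in the wild type. The HSP20-like gene AT2G19310, a relative of the small heat shock proteins, had heat differences of 4.87 ± 0.15 (SE) in the double mutant and 4.61 ± 0.18 (SE) in the wild type. The cyclophilin-type prolyl isomerases AT2G21130 and AT1G01940, which turn proline bonds during folding, had 4.32 ± 0.16 (SE) and 4.07 ± 0.11 (SE) in the double mutant, and 4.37 ± 0.19 (SE) and 4.096 ± 0.14 (SE) in the wild type.

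BOB1, a NudC-domain chaperone needed for thermotolerance in Arabidopsis, read 10.22, 10.26 and 10.08 in heated double mutants, against 6.90, 6.60, 6.95 and 7.19 in untreated ones, and 10.13, 10.31 and 10.14 in heated wild type, against 6.58 and 6.57 in untreated wild type. Cpn60beta2, a subunit of the chloroplast chaperonin, read 12.83, 12.72 and 12.68 in heated double mutants, against 9.43, 9.04, 10.18 and 10.24 in untreated ones, and 12.81, 12.60 and 12.79 in heated wild type, against 8.92 and 9.61 in untreated wild type. Its heated arrays were tight in both genotypes while its untreated arrays spread over more than 1, with untreated double mutant replicates 3 and 4 highest. Among the 48 its heat difference was nearest to the limit, at 3.02 ± 0.27 (SE) in the double mutant.

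The 4 genes of protein breakdown had heat differences of 3.43 to 4.16 in the double mutant and 3.35 to 4.27 in the wild type. The U-box protein AT5G18340, of a class of ubiquitin ligases, read 8.27, 8.22 and 8.19 in heated double mutants, against 4.12, 4.08, 3.98 and 4.07 in untreated ones, and 8.47, 8.56 and 8.38 in heated wild type, against 4.34 and 4.07 in untreated wild type. Its residual SD of 0.0924 was the smallest of the 48. The RING-type ubiquitin ligase AT1G26800 read 9.97, 10.26 and 10.51 in heated double mutants, against 7.26, 7.32, 5.61 and 6.27 in untreated ones, and 10.68, 10.75 and 10.81 in heated wild type, against 7.62 and 7.01 in untreated wild type. Untreated double mutants fell into a higher pair, replicates 1 and 2, and a lower pair, replicates 3 and 4, and the residual SD was 0.546. A second RING-type ligase, AT5G47610, and AT2G41160, which has a ubiquitin-associated domain, had differences of 4.0998 ± 0.20 (SE) and 3.43 ± 0.15 (SE) in the double mutant, and of 4.02 ± 0.23 (SE) and 3.35 ± 0.18 (SE) in the wild type.

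The 8 genes of metabolism, translation, transport and signalling had heat differences of 3.58 to 5.93 in the double mutant and 3.48 to 6.17 in the wild type. AT1G72660, a GTPase of the DRG family, read 8.98, 9.32 and 9.49 in heated double mutants, against 3.38, 3.31, 3.53 and 3.36 in untreated ones, and 9.62, 9.36 and 9.42 in heated wild type, against 3.05 and 3.54 in untreated wild type. AT5G25450, a small subunit of respiratory complex III, read 12.01, 12.39 and 12.59 in heated double mutants, against 6.41, 6.55, 6.31 and 6.33 in untreated ones, and 12.25, 12.35 and 12.03 in heated wild type, against 7.01 and 6.54 in untreated wild type. Its differences were 5.93 ± 0.15 (SE) in the double mutant and 5.44 ± 0.18 (SE) in the wild type, and its heated values overlapped between genotypes. PDC2, a pyruvate decarboxylase, the first enzyme of ethanol fermentation, read 10.74, 10.72 and 10.34 in heated double mutants, against 7.06, 7.21, 6.79 and 7.02 in untreated ones, and 9.9999, 10.58 and 10.14 in heated wild type, against 7.13 and 6.39 in untreated wild type.

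The thaumatin-like gene AT4G36010, from a family of defence proteins, read 11.12, 11.10 and 10.58 in heated double mutants, against 6.69, 5.67, 5.91 and 5.42 in untreated ones, and 9.47, 10.33 and 9.71 in heated wild type, against 5.89 and 5.74 in untreated wild type. The heated double mutants lay above the heated wild type without overlap, by 1.10 ± 0.30 (SE), which did not pass the adjusted test (adjusted p = 0.143, limma). The rest of this group were the EF-hand calcium-binding protein AT1G21550, the lipid-droplet-associated protein AT1G67360, the nitrate and peptide transporter AT5G62730 and AT5G12110, a subunit of the elongation factor eEF1B. Their differences ran from 3.77 to 4.99 in the double mutant and from 3.83 to 4.54 in the wild type.

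Among the 19 genes without a role here, AT5G07330, one of the 6 whose untreated signal lay near background, read 10.54, 10.60 and 10.78 in heated double mutants, against 3.67, 4.00, 4.16 and 3.64 in untreated ones, and 10.95, 10.94 and 11.10 in heated wild type, against 4.22 and 4.02 in untreated wild type. The differences were 6.78 ± 0.13 (SE) in the double mutant and 6.88 ± 0.16 (SE) in the wild type. Of the same group, AT1G44414, AT3G07150, AT4G23493 and AT4G19430 had differences of 5.46, 5.15, 5.10 and 5.16 in the double mutant, and of 5.67, 5.63, 5.55 and 5.29 in the wild type. The remaining 14 were AT1G16040, AT1G66510, AT3G07090, AT3G10020, AT4G02550, AT4G09150, AT4G17250, AT4G35985, AT5G10695, AT5G11680, AT5G19875, AT5G28430, AT5G35320 and AT5G47830, and lay between 3.03 and 5.13 in the double mutant and between 3.07 and 4.88 in the wild type. AT4G35985, which had the widest scatter of the 48, read 8.90, 8.75 and 8.26 in heated double mutants, against 5.91, 4.59, 4.67 and 4.36 in untreated ones, and 7.89, 9.10 and 8.95 in heated wild type, against 4.91 and 4.83 in untreated wild type. AT4G02550 read 9.74, 9.39 and 9.75 in heated double mutants, against 4.15, 4.76, 4.496 and 4.57 in untreated ones, and 8.78, 9.19 and 8.95 in heated wild type, against 4.57 and 4.28 in untreated wild type. Its heated double mutants lay above the heated wild type without overlap, by 0.66 ± 0.17 (SE), which did not pass the adjusted test (adjusted p = 0.111, limma). AT5G28430 is a pseudogene in the annotation, and its probe set is of the kind (_s_at) shared between similar transcripts. AT1G16040 has a second probe set, which did not pass the limit, with heat differences of 1.66 in the double mutant and 1.77 in the wild type, against 3.03 and 3.07 for the one chosen.

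**Figure D2:**
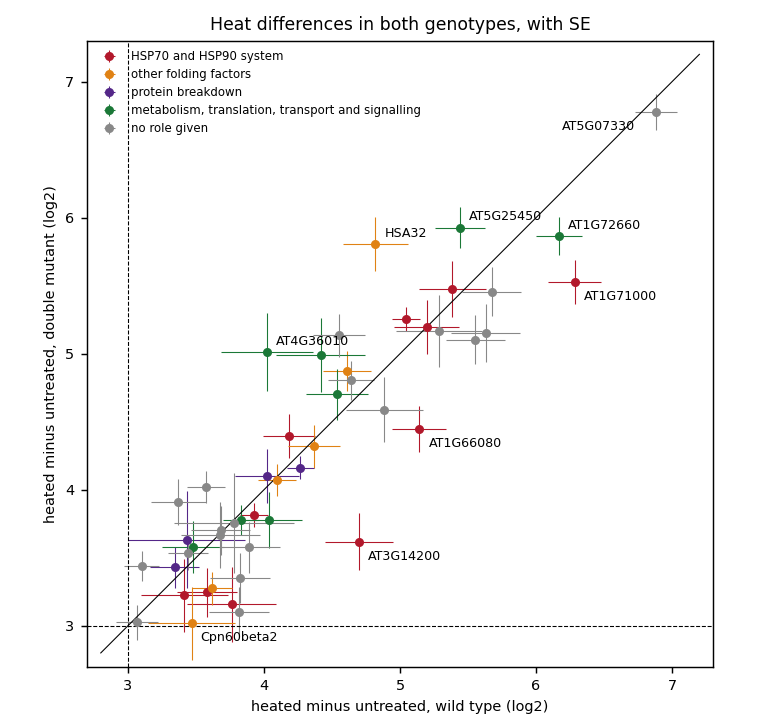
Heat difference (log2, heated minus untreated, with SE) in the double mutant (vertical axis) against that in the wild type (horizontal axis) for the 48 genes, coloured by role, with the diagonal of equal differences and dashed lines at the limit of 3. The points run along the diagonal, with HSA32 and AT4G36010 above it and AT3G14200, AT1G71000 and AT1G66080 below it.

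The genes just inside the limit, by the smaller of their heat differences, were Cpn60beta2 at 3.02 and AT1G16040 at 3.03, both in the double mutant, and AT4G17250 at 3.10, also in the double mutant. Just outside were AT4G15420, with 2.98 in the double mutant and 3.32 in the wild type, the HSP70 relative AT4G16660, with 2.97 and 3.95 in the same order, and AT2G42270, with 3.25 and 2.97. The SE of the difference of Cpn60beta2 in the double mutant, 0.27, is wider than its distance to the limit.

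Genotypes were compared after heat (3 double mutant against 3 wild-type arrays) and without it (4 against 2). The choice of genes did not use these differences directly, but it used the same arrays and asked for the limit in both genotypes. That left out 16 eligible probe sets past the limit in the wild type only and 5 in the double mutant only. The counts of genotype calls are therefore not independent of the choice. After heat 1 of the 48 genes was called, AT1G66080, the Hikeshi-like gene, where 0.897% of all probe sets were called in either direction. Its mean was 8.03 ± 0.41 in heated double mutants and 9.05 ± 0.23 in heated wild type (SD, n = 3 each), a difference of -1.02 ± 0.18 (SE) on the log2 scale or 0.492 of the wild-type signal (limma adjusted p = 0.0235). Lower calls made up 0.4% of all probe sets and higher calls 0.497%, and 0 of the 48 genes were called higher. The split of all probe sets was 0.242% lower and 0.756% higher with arrays centred on reference genes. The call ended without heated wild-type replicate 1 (adjusted p = 0.126) or 3 (0.0694) and without heated double mutant replicate 1 (0.0532) or 2 (0.0869). It also ended with the replicate number as a block (0.0848) and with only the groups compared in the fit (0.157). Over all alternatives the adjusted p ran from 0.00346 to 0.157.

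The J-domain genes AT1G71000 and AT3G14200, the second named after its values were seen, lay close behind. AT1G71000 averaged 8.73 ± 0.28 in heated double mutants and 9.58 ± 0.29 in heated wild type (SD, n = 3 each), a difference of -0.85 ± 0.17 (SE) with an adjusted p of 0.0505 by limma. AT3G14200 averaged 7.69 ± 0.47 and 8.77 ± 0.35 in the same order, a difference of -1.08 ± 0.22 (SE) with an adjusted p of 0.051. Neither passed at 0.05 as deposited, and both passed when arrays were centred on their median and without heated double mutant replicate 3, and AT1G71000 also without heated wild-type replicate 3. Without heated wild-type replicate 1 the adjusted p was 0.234 for AT1G71000 and 0.235 for AT3G14200, the highest over all alternatives for either gene, and the lowest were 0.0146 and 0.0107, with array weights. Without heated double mutant replicate 3, which stood near the wild type on the second component, 6 of the 48 genes were called lower and none higher, where 2.41% of all probe sets were called lower and 2.26% higher. The 6 were AT1G66080, AT4G23493, AT3G14200, AT3G07150, AT1G44414 and AT1G71000.

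Without regard to the test, 13 of the 48 genes (27.1%) had every heated double mutant array below every heated wild-type array, as had 8.08% of all probe sets, and 7 genes (14.6%) had them all above, as had 7.04% of all. These shares were not tested against those of all probe sets, which were not matched by signal level. At an unadjusted p under 0.05, 10 genes were lower and 3 higher after heat, where 6.59% and 5.76% of all probe sets were. The median difference of the 48 was -0.11, against 0.0011 for all probe sets. In 36 of the 48 genes the 95% interval of the difference stayed within 1 log2 unit on either side of 0. The 12 whose interval reached further were AT1G66080, AT1G71000, AT3G14200, AT1G56300, AT1G11660, AT3G07150, AT4G23493, AT4G19430, AT4G02550, AT4G17250, AT4G36010 and AT1G26800.

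**Figure D3:**
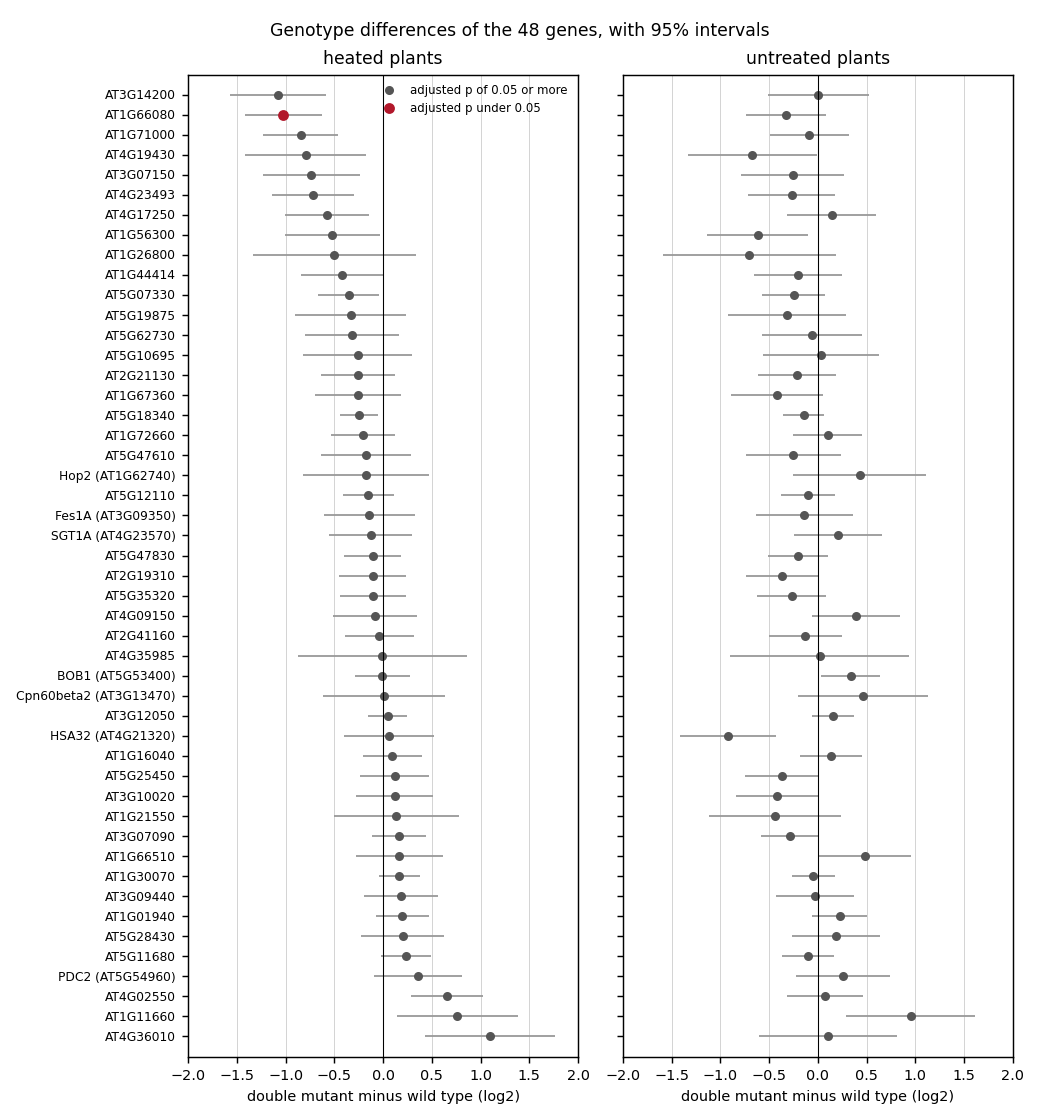
Difference of double mutant minus wild type (log2, with 95% intervals) for each of the 48 genes, in heated plants on the left and untreated plants on the right, in the order of the heated difference. AT1G66080 alone is marked as called, at -1.02 after heat, and the widest differences lie between -1.08 and 1.10 after heat and between -0.92 and 0.95 without it.

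In untreated plants limma called 0 of the 48 genes higher or lower in the double mutant, where 2.69% of all probe sets were called, 2.23% higher and 0.466% lower. With arrays centred on reference genes those shares were 0.765% and 2.39%. At an unadjusted p under 0.05, 3 genes were higher and 4 lower, where 13.7% and 4.94% of all probe sets were. The untreated double mutants were all above the untreated wild type in 7 genes (14.6%), as were 19.5% of all probe sets, and all below it in 4 (8.33%), as were 2285 of all 22746 probe sets. Neither share was tested against that of all probe sets. The 4 were AT1G66080, HSA32, AT2G19310 and AT3G07090. The median difference was -0.10, against 0.019 for all probe sets, and in 40 genes the 95% interval stayed within 1 log2 unit of 0.

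HSA32 came nearest to a call without heat. It averaged 5.34 ± 0.42 in untreated double mutants (SD, n = 4) and 6.26 ± 0.33 in untreated wild type (SD, n = 2), a difference of -0.92 ± 0.22 (SE) with an adjusted p of 0.0559 by limma. It was called lower after quantile normalization (adjusted p = 0.047), with arrays centred on their median (0.0458) or on reference genes (0.0214), and without untreated double mutant replicate 3 (0.0186). Over all alternatives its adjusted p ran from 0.0186 to 0.322. After heat the genotypes differed in HSA32 by 0.06 ± 0.21 (SE), with a 95% interval of -0.40 to 0.52.

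**Figure D4:**
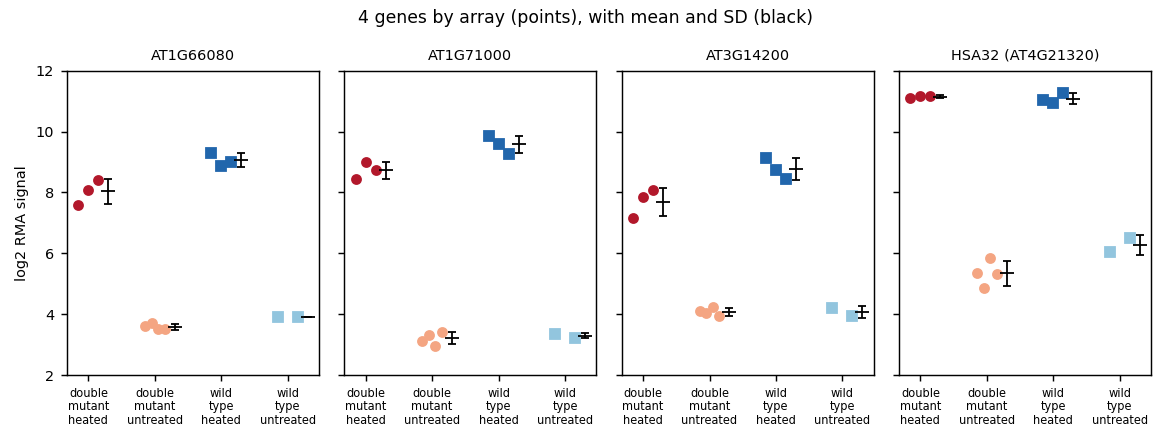
Log2 RMA signal by array for AT1G66080, AT1G71000, AT3G14200 and HSA32 in the 4 groups, with the mean and SD of each group in black. In the first 3 every heated double mutant array lies below every heated wild-type array, and HSA32 reads 4.84 to 5.86 in untreated double mutants and 6.03 and 6.49 in untreated wild type.

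The difference of the heat responses, that of the double mutant minus that of the wild type, was tested in the same fit. The choice of genes put a floor under both responses but did not use their difference directly. Genes past that floor in 1 genotype only were left out, so the count below is not independent of the choice. By limma 0 of the 48 genes passed, where 0.0747% of all probe sets passed, 0.022% with a larger and 0.0528% with a smaller response in the double mutant. At an unadjusted p under 0.05, 4 genes were larger and 4 smaller, where 2.95% and 7.48% of all probe sets were. The lowest value was that of AT3G14200, -1.08 ± 0.32 (SE) (adjusted p = 0.296), with a 95% interval of -1.79 to -0.37. The highest were AT4G36010 with 0.99 ± 0.44 (SE) (adjusted p = 0.469) and HSA32 with 0.98 ± 0.31 (SE) (adjusted p = 0.313). The median over the 48 was -0.034, against -0.033 over all probe sets. In 28 genes the interval stayed within 1 log2 unit of 0 and in 20 it reached further, so a difference of that size in those 20 is not excluded by these 12 arrays.

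Arrays of one group differed from each other more in these genes than in most. The residual SD had a median of 0.265 over the 48, against 0.159 over all probe sets, and ran from 0.0924 in AT5G18340 to 0.565 in AT4G35985. Probe sets were not matched by signal level for this, and the median signal of all probe sets was 5.03 to 5.27 by array. The median signal of the 48 genes by array was 10.25, 10.33 and 10.35 in heated double mutants, 6.24, 6.21, 5.96 and 6.08 in untreated ones, 10.27, 10.40 and 10.18 in heated wild type and 6.19 and 6.20 in untreated wild type. These medians of the genotypes overlapped after heat and without it. Heated double mutant replicate 3 was nearer to the mean of the heated wild type than to that of the other heated double mutants in 27 of the 48 genes (56.2%), and in 59.9% of all probe sets.

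Lists of stress genes by locus, 85 in all, were set beside the 48. On this annotation 14 of them could be read, 7 of which are among the 48 genes. The 14 include 4 of 18 HSP70 genes, 6 of 10 co-chaperones and thermotolerance proteins, and 2 of 9 ascorbate peroxidases and catalases. None of the 21 heat shock factors, 7 HSP90 genes, 3 HSP100 disaggregases, 5 chaperonins and 6 genes of galactinol and raffinose synthesis could be read, so nothing is said of them. Of the 7 measured genes that are not among the 48, limma called 5 higher and 0 lower in the heated double mutant, where 13.8% of all probe sets were called higher and 20.2% lower. In the heated wild type it called 4 higher and 0 lower, where 13.7% of all probe sets were called higher and 12.8% lower. Among HSP70 genes, HSC70-2 rose in heat by 2.11 ± 0.20 (SE) in the double mutant and 2.73 ± 0.23 (SE) in the wild type, and the relative HSP70-17 (AT4G16660) by 2.97 ± 0.32 (SE) and 3.95 ± 0.38 (SE). HOP1, the sister of Hop2, rose by 1.07 ± 0.18 (SE) and 1.64 ± 0.21 (SE) in the same order.

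Of the stress transcription regulators 2 of 6 could be read. BZIP28, a membrane-bound factor of the unfolded protein response, rose by 2.28 ± 0.12 (SE) in the double mutant and 2.26 ± 0.14 (SE) in the wild type, and BZIP60, of the same response, by 0.45 ± 0.14 (SE) in the double mutant, with 0.44 ± 0.17 (SE) in the wild type (adjusted p = 0.0783, limma). The ascorbate peroxidases SAPX and TAPX, which remove peroxide in organelles, had 0.14 ± 0.14 (SE) and -0.15 ± 0.16 (SE) in the double mutant and 0.33 ± 0.16 (SE) and 0.18 ± 0.19 (SE) in the wild type, and neither passed the test in either genotype.

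**Figure D5:**
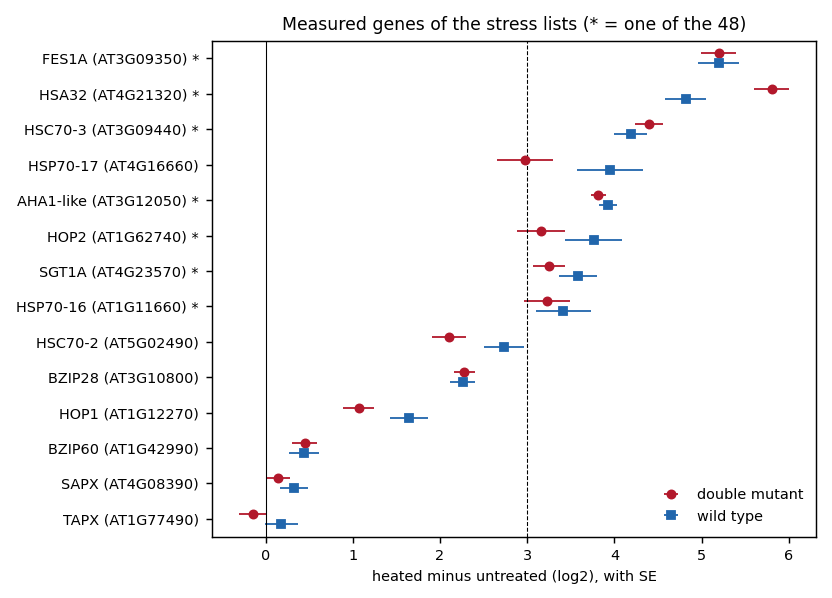
Heat difference (log2, heated minus untreated, with SE) of the 14 measured genes of the stress lists, with circles for the double mutant and squares for the wild type, ordered by the wild type. Asterisks mark the 7 that are among the 48 genes, the dashed line stands at the limit of 3, and SAPX and TAPX lie near 0.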

How the data were processed

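Transcripts were measured in 12 samples on Affymetrix arrays. The values are log2 signals that the authors deposited after RMA with the affy package, per the submitters' processing notes. RMA subtracts background, makes the arrays' distributions alike and sums probes to probe sets. Versions are not given in the sources used here. RMA narrows low signals, so differences from near background are understated.

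The 64 Affymetrix controls were left out of 22810 probe sets. Genes were named by the platform annotation, which gives 13513 probe sets 1 gene, 503 several and 8730 none. limma 3.58.1 in R 4.3.3 fitted 4 group means over all 12 arrays (8 residual degrees of freedom, eBayes), with two-sided p-values adjusted by Benjamini-Hochberg over 22746 probe sets and a threshold of 0.05. The fit was tested on simulated data. Array number limits the precision. P-values measure the spread between arrays, which may be technical in part.

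The members and the lists were chosen with earlier results of these data known. Named by rule were members on the stress lists, the 12 with the largest mean heat difference, members called between genotypes, and 3 genes on each side of the limit. Other members were named by role or for their values, after those values were seen. Same-numbered arrays of different groups had residual correlations of -0.348 to 0.265, with 3 of 15 above 0.1, so the replicate numbers were not taken as pairs. Alternatives were quantile normalization, centring on the median or on 4 reference probe sets, the upper 0.5 of probe sets by mean, the replicate number as a block, trend and robust moderation, array weights, fits of only the groups compared, and leaving out each array.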

Additional observations from a re-analysis of the deposited data

Results flagged for a closer look

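In untreated double mutants, the one group of 4 arrays, 4 of the 48 genes had an array far from the other 3 by Dixon's test at 95%. Chance gives such a gap in about 1 in 20 groups. The share of all probe sets with such a gap was not computed, so the count of 4 cannot be set against it. AT1G30070, the gene with an SGS domain, read 6.57 in replicate 2, against 6.78 to 6.83 in the others. The prolyl isomerase AT2G21130 read 5.62 in replicate 2, against 4.95 to 5.05 in the others. The prolyl isomerase AT1G01940 read 7.61 in replicate 3, against 7.17 to 7.22 in the others. AT2G41160, with a ubiquitin-associated domain, read 6.08 in replicate 3, against 6.62 to 6.73 in the others.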

How the results depend on the processing

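After heat, 1 of the 48 genes was called lower in the double mutant as deposited. The count was 3 with arrays centred on their median, 3 with the upper 0.5 of probe sets by mean and 3 with trend and robust moderation. It was 5 with array weights and 0 with only the groups compared. With the replicate number as a block it was 0, and the adjusted p of AT1G66080 was 0.0848. Leaving out each array gave 0 to 6, the 6 without heated double mutant replicate 3. Without heat the count of lower genes was 1 instead of 0, HSA32, under quantile normalization, centring on the median or on reference genes, the upper 0.5, trend and robust moderation and array weights. Leaving out each array gave 0 to 1, AT1G56300 without untreated wild-type replicate 2 (adjusted p = 0.0175) and HSA32 without untreated double mutant replicate 3. The block changed no other call. For the counts of the 48 and the genes tested singly (AT1G66080, AT1G71000, AT3G14200 and HSA32 between genotypes, AT3G14200 for the responses), no direction reversed under the alternatives run. Over all probe sets it did: without heat 174 were called higher and 543 lower with reference centring, against 507 higher and 106 lower as deposited. All 48 genes stayed called higher in heat in both genotypes under 20 alternatives, which the choice of genes fixes and which is no test. For the difference of responses 0 were called under 19 alternatives.

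The limit kept 46 genes after quantile normalization (45 of the 48) and 52 after centring on the median or on reference genes (all 48), and 45 to 51 without each array. At 2.5 it kept 67 genes and at 3.5 it kept 34. Over all probe sets the median heat difference in the double mutant was 0.258 with reference centring, against 0.0071 as deposited. Over all probe sets, 113 were called higher and 91 lower in the double mutant after heat, against 513 and 548 without heated double mutant replicate 3 and 21 and 12 with only the groups compared. Without heat the counts were 84 and 29 without untreated wild-type replicate 1. The causes were not tested. The analysis of promoter motifs was not run. Signals near background limit the size of the heat difference in 6 genes on every untreated array, and in others on some of them.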
